A study of Mus musculus with 9 samples.

Results

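The Dusp MAP kinase phosphatases are a family of dual specificity phosphatases, here the 10 genes Dusp1, Dusp2, Dusp4, Dusp5, Dusp6, Dusp7, Dusp8, Dusp9, Dusp10 and Dusp16, taken by symbol from the 37980 genes of the table. They were compared between NA and WT myeloid progenitors (MPs). MAP kinases are switched on when an upstream kinase phosphorylates a threonine and a tyrosine in their activation loop, and these phosphatases switch them off by removing both phosphates. A docking domain sets which kinase each one binds: Dusp1, Dusp2, Dusp4 and Dusp5 are nuclear, Dusp6, Dusp7 and Dusp9 are cytoplasmic and prefer the kinase ERK, and Dusp8, Dusp10 and Dusp16 prefer the stress kinases JNK and p38. Several of them are induced by the signal they end, and transcript levels report neither phosphatase protein nor kinase activity, which were not measured here.

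RNA was sequenced from MPs (Lin-ckit+Sca1-) of mouse bone marrow, 100000 cells per sample, in 4 NA MP and 5 WT MP samples. All mice were of the C57BL/6 strain. NA stands for the Nup98-Hoxa10hd fusion gene, which in NA LSL/+; Vav-Cre mice is expressed once Cre, driven by the blood cell promoter Vav, has removed a stop cassette. NA MPs were Tdtomato+ cells of irradiated adult mice that had received multipotent progenitors (MPPs) of NA mice with helper bone marrow cells, and WT MPs were CD45.2+ cells of mice that had received WT MPPs, both 3 months after the transplantation according to the labels, whereas the methods of the study give a later time. The gates for the groups therefore differed in the marker of donor origin, and recipients are described elsewhere in the study as CD45.2+, so how far the WT MPs came from the donor cannot be told from the sources. Samples came from respective recipient mice, and whether each sample was a single mouse is not given, so p-values measure the spread between these samples.

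The libraries held 5557718 to 8106140 reads assigned to genes, and 3 reads, taken as the limit of detection, corresponded to 0.374 to 0.543 CPM, the read count scaled to a common library size. Libraries are named by group and by the replicate number of the labels. Kit (447 CPM in NA MPs and 456 in WT MPs) and Mpo (16250 and 15620 CPM) were abundant in both groups, and Ly6a, which encodes Sca1, was low (3.22 and 2.74 CPM). Of 12 myeloid progenitor markers, 6 were higher and 2 lower in NA MPs. For markers, higher and lower mean past the threshold of the edgeR test described below, as 34.1% of all tested genes were. Markers of other cells differed as well. All 11 pro-B and pre-B cell markers were higher in NA MPs, with summed levels of 219 to 395 CPM against 55.6 to 62.3 CPM in WT MPs. Of 11 tested erythroid markers 10 were lower, with 799 to 1020 CPM against 1450 to 1610 CPM, and of 8 mast cell and basophil markers 6 were higher and 1 lower, with 571 to 657 CPM against 401 to 441 CPM. The T cell markers Cd3e and Cd3g had 0 reads in all 9 libraries. Only 2 genes of the T and NK cell list were tested, and both were higher in NA MPs. These were Lck (7.87 CPM against 1.65 CPM in WT MPs) and Nkg7 (295 against 263 CPM). In bulk RNA, fewer cells of a type and less RNA per cell cannot be told apart, and the part of these shifts in the results below was not tested.

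Across all genes, 4078 of 11953 tested genes (34.1%) differed between NA and WT MPs (edgeR's quasi-likelihood test, Benjamini-Hochberg adjusted p under 0.05), of which 2134 (17.9%) were higher and 1944 (16.3%) lower in NA MPs. Of the 10 phosphatases, 8 had enough reads to be tested, and 4 of these 8 were called, all of them higher in NA MPs: Dusp1, Dusp2, Dusp5 and Dusp6. The groups did not overlap for these same 4 genes, whereas 26.4% of all tested genes showed no overlap and 14.2% had every NA MP library above every WT MP library. The median log2 fold change of the 8 tested members was 0.75, beside -0.0011 over all tested genes.

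The calls are given by type, and differences between types were not tested. All 3 tested nuclear members rose (median of the log2 fold changes 1.31), and so did 1 of the 3 cytoplasmic members, which had a median of 0.55. None of the 2 tested members of the stress kinase type was called by edgeR, with unadjusted p of 0.576 for Dusp10 and 0.233 for Dusp16, and their median was -0.02. The summed level of that type was 6.05 to 7.79 CPM in NA MPs and 5.88 to 8.57 CPM in WT MPs.

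**Figure D1:**
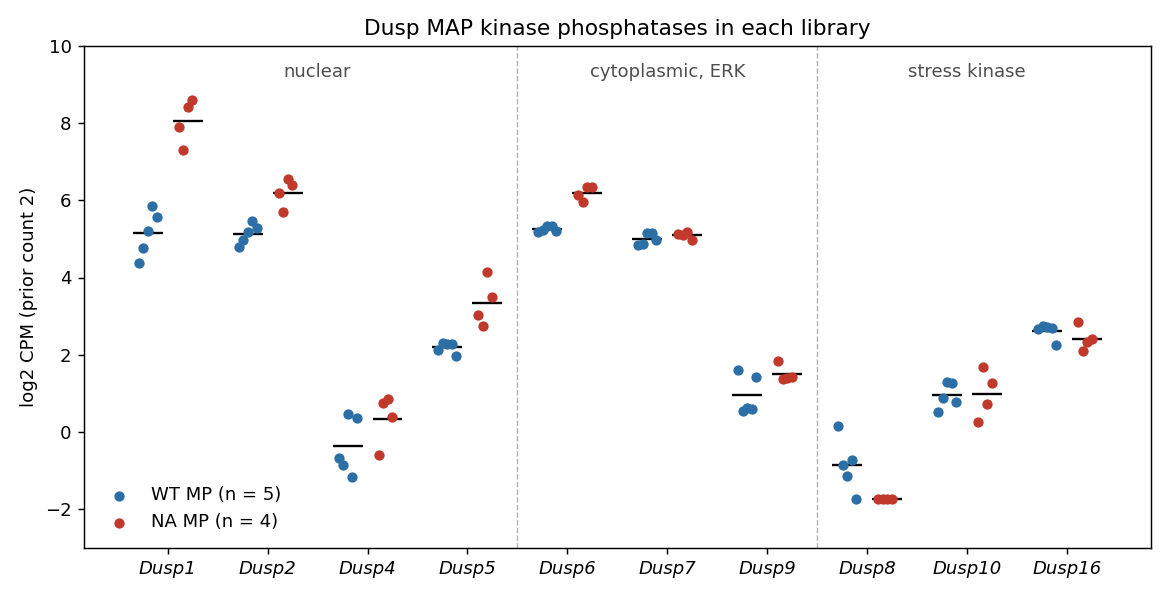
Log2 CPM (prior count 2, vertical axis) of each of the 10 phosphatases in every library, with 1 point per library and a bar at the group mean, WT MPs in blue (n = 5) and NA MPs in red (n = 4), ordered by type. The red and blue points are fully apart for Dusp1, Dusp2, Dusp5 and Dusp6 and mix or touch for the others, and Dusp8 lies at the detection limit in all 4 NA MP libraries.

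Upstream sequence of the 4 genes that rose is shown because they moved together, and that of Dusp8 because it shares letters with Dusp1 but was barely detected. Each stretch has 150 bases, from 200 to 51 bases before the annotated start of the RefSeq gene (GRCm38.p6, the patch level of mm10), 5′ to 3′ on the strand of the gene: Dusp1 at chr17:26508523-26508672 on the minus strand, Dusp2 at chr2:127335959-127336108 on the plus strand, Dusp5 at chr19:53528945-53529094 on the plus strand, Dusp6 at chr10:99263031-99263180 on the plus strand and Dusp8 at chr7:142095335-142095484 on the minus strand. Capitals mark the cAMP response element TGACGTCA, bound by CREB and ATF factors, in Dusp1 and Dusp8, and the CArG box, bound by serum response factor, in Dusp5.
Dusp1: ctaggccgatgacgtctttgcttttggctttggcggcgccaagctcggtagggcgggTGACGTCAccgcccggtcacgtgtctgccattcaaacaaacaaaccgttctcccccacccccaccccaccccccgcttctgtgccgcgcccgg
Dusp2: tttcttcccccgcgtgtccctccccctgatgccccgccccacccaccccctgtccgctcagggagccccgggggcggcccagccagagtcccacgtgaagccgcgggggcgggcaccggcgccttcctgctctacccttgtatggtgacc
Dusp5: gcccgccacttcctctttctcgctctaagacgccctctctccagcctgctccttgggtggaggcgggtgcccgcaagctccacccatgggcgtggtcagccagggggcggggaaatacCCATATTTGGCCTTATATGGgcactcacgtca
Dusp6: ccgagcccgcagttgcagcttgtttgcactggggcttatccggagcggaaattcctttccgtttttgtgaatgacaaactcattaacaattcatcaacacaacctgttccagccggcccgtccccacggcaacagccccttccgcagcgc
Dusp8: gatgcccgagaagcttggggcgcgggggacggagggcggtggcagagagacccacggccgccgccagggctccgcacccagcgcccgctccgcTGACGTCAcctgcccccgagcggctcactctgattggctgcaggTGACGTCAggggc

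The letters were searched on both strands in the 250 bases before the start of 32851 RefSeq genes, of which 8 members had an entry. TGACGTCA, which reads the same on both strands, was found in 1.55% of all windows, once in Dusp1 (first base 143 bases before the start) and at 2 places in Dusp8 (107 and 63 bases before the start). A CArG box was found in 1.47% of all windows and at 2 adjoining places in Dusp5 (82 and 72 bases before the start). An AP-1 site (TGANTCA with C or G in place of N) was found in 4.46% of all windows and in none of the 8 members, and Dusp2, Dusp6, Dusp7, Dusp10 and Dusp16 held none of these motifs. The search windows of the 4 raised members had a GC content of 56.4% (Dusp6) to 70.4% (Dusp2), against a median of 52.4% over all windows. Those of Dusp7, Dusp8, Dusp10 and Dusp16 had 59.6% (Dusp10) to 77.2% (Dusp7), so a high GC content was not particular to the raised members. A match is a description of letters and no evidence of binding.

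Dusp1 (ENSMUSG00000024190, chr17:26505590-26508519, minus strand, 4 exons) encodes the nuclear phosphatase MKP-1, an immediate early gene product that acts on p38, JNK and ERK. Its levels in NA MPs 1 to 4 were 241, 157, 344 and 389 CPM. In WT MPs 1 to 5 they were 20.4, 26.7, 36.9, 57.3 and 47.1 CPM. The NA MP library with the lowest level was still 2.75 times the highest WT MP library, although the levels ranged 2.47-fold within NA MPs and 2.80-fold within WT MPs. The mean was 283 ± 104 CPM (SD, n = 4) in NA MPs and 37.7 ± 14.9 CPM (SD, n = 5) in WT MPs, a ratio of 7.50. The log2 fold change was 2.92 (SE 0.37, 95% interval 2.04 to 3.79, edgeR quasi-likelihood test, Benjamini-Hochberg adjusted p = 0.00059). An exact two-sided permutation test on log2 CPM gave p = 0.0159, the smallest that 4 against 5 samples (126 ways to split them) allow. Dusp1 was also variable between replicates: its SD of log2 CPM exceeded that of 98.7% of tested genes in NA MPs and of 99.2% in WT MPs.

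Dusp2 (ENSMUSG00000027368, chr2:127336159-127338376, plus strand, 4 exons) encodes PAC-1, a nuclear phosphatase known from activated lymphocytes and other blood cells. NA MPs 1 to 4 had 72.1, 51.7, 93.1 and 83.3 CPM of Dusp2. WT MPs 1 to 5 had 27.4, 31.2, 35.7, 43.7 and 38.8 CPM. All NA MP libraries lay above all WT MP libraries, by a narrow margin, since NA MP 2 was 1.18 times WT MP 4. The mean was 75.1 ± 17.8 CPM (SD, n = 4) against 35.4 ± 6.37 CPM (SD, n = 5), and the log2 fold change was 1.09 (SE 0.20, 95% interval 0.61 to 1.56, edgeR quasi-likelihood test, Benjamini-Hochberg adjusted p = 0.00467, exact permutation p = 0.0159).

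Dusp5 (ENSMUSG00000034765, chr19:53529109-53542431, plus strand, 4 exons) encodes a nuclear phosphatase specific for ERK, which is induced by ERK itself. An exon of Dusp5 overlaps AC137853.2 on the opposite strand, and since the strand setting of the counting is not given in the sources used here, reads of this pair cannot be told apart. Dusp5 was 7.79, 6.40, 17.5 and 11 CPM in NA MPs 1 to 4. It was 4.05, 4.63, 4.59, 4.51 and 3.64 CPM in WT MPs 1 to 5. The WT MP libraries were tight while the NA MP libraries were spread, with NA MP 3 well above the others, and the groups did not overlap. The mean was 10.7 ± 4.94 CPM (SD, n = 4) against 4.28 ± 0.427 CPM (SD, n = 5). The log2 fold change was 1.31 (SE 0.30, 95% interval 0.64 to 1.98, edgeR quasi-likelihood test, Benjamini-Hochberg adjusted p = 0.00711, exact permutation p = 0.0159). Without NA MP 3 it was 0.99 and the gene was still called. These values rest on 42 to 104 reads per NA MP library and 25 to 36 reads per WT MP library.

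Dusp4 (ENSMUSG00000031530, chr8:34807297-34819894, plus strand, 4 exons), the nuclear phosphatase MKP-2, was near the detection limit. NA MPs 1 to 4 held 2, 9, 9 and 8 reads and WT MPs 1 to 5 held 2, 2, 7, 1 and 7 reads, or 28 and 19 reads in all. The groups overlapped (exact permutation p = 0.111), and a difference was not detectable at this depth.

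Of the cytoplasmic type, Dusp6 (ENSMUSG00000019960, chr10:99263231-99267488, plus strand, 3 exons) encodes MKP-3, which binds ERK and is widely used as a readout of ERK signalling. It reached 69.6, 61.6, 81.4 and 81.2 CPM in NA MPs 1 to 4. It was 36.2, 37.3, 39.8, 40.3 and 36.6 CPM in WT MPs 1 to 5. The replicates were close to each other, with a 1.11-fold range within WT MPs, and the NA MP library with the least Dusp6 was 1.53 times the highest WT MP library. The mean was 73.4 ± 9.64 CPM (SD, n = 4) against 38.01 ± 1.90 CPM (SD, n = 5). The log2 fold change was 0.96 (SE 0.07, 95% interval 0.81 to 1.10, edgeR quasi-likelihood test, Benjamini-Hochberg adjusted p = 3.80e-12, exact permutation p = 0.0159). Its log2 fold change was smaller than that of Dusp1, and so was its SE.

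Dusp7 (ENSMUSG00000053716, chr9:106368632-106375724, plus strand, 3 exons), another ERK phosphatase of the cytoplasm, was 31.2 to 35.6 CPM in NA MPs and 28.2 to 35.2 CPM in WT MPs. The ranges overlapped and the log2 fold change was 0.09 (SE 0.07, 95% interval -0.06 to 0.24, edgeR quasi-likelihood test, Benjamini-Hochberg adjusted p = 0.362), so that the interval did not include a change of the size of Dusp6.

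Dusp9 (ENSMUSG00000031383, chrX:73639419-73643514, plus strand, 4 exons), which encodes MKP-4, was low. NA MPs 1 to 4 had 3.26, 2.29, 2.35 and 2.37 CPM. WT MPs 1 to 5 had 2.76, 1.16, 1.22, 1.20 and 2.38 CPM. WT MP 1 and WT MP 5 lay within the range of the NA MPs and the other 3 WT MP libraries lay below every NA MP library. The log2 fold change was 0.55 (SE 0.28, 95% interval -0.01 to 1.11, edgeR quasi-likelihood test, Benjamini-Hochberg adjusted p = 0.123, exact permutation p = 0.159). Without WT MP 1 it was 0.76 and past the threshold (edgeR, Benjamini-Hochberg adjusted p = 0.0399), so the call depended on 1 library.

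**Figure D2:**
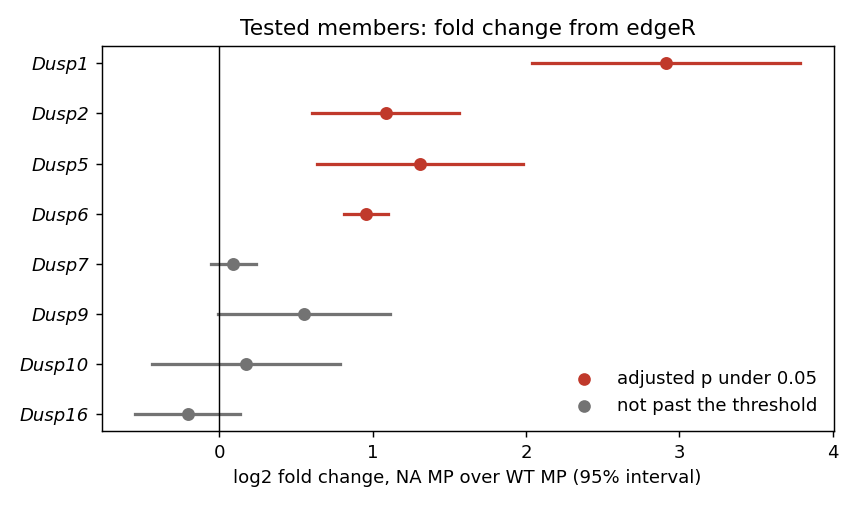
Log2 fold change of NA over WT MPs (horizontal axis) with its 95% interval from edgeR for the 8 tested phosphatases, in red where the adjusted p was under 0.05 and in grey otherwise. The intervals of Dusp1, Dusp2, Dusp5 and Dusp6 lie above 0, that of Dusp6 being narrow (0.81 to 1.10) and that of Dusp1 wide (2.04 to 3.79), and the other 4 include 0.

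The stress kinase members were all of low level. Dusp16 (ENSMUSG00000030203, chr6:134715473-134792625, minus strand, 7 exons), also called MKP-7 and mainly a JNK phosphatase, was 3.96 to 6.88 CPM in NA MPs and 4.48 to 6.43 CPM in WT MPs. The groups overlapped and the log2 fold change was -0.21 (SE 0.17, 95% interval -0.55 to 0.14, edgeR quasi-likelihood test, Benjamini-Hochberg adjusted p = 0.381). Dusp10 (ENSMUSG00000039384, chr1:184034381-184075636, plus strand, 4 exons), also called MKP-5, acts on p38 and JNK. It was 0.906 to 2.90 CPM in NA MPs and 1.13 to 2.14 CPM in WT MPs, from 5 to 19 reads per library. Its log2 fold change of 0.17 (SE 0.31, 95% interval -0.44 to 0.79, edgeR quasi-likelihood test, Benjamini-Hochberg adjusted p = 0.711) turned negative (-0.12) without NA MP 2, so no direction is given.

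Dusp8 (ENSMUSG00000037887, chr7:142079490-142095272, minus strand, 7 exons), a JNK and p38 phosphatase best known from brain and heart, was at the detection limit and had too few reads for the edgeR test above. All 4 NA MP libraries held 0 reads, and WT MPs 1 to 5 held 4.78, 2, 1, 2 and 0 reads, which are estimates that need not be whole. Over the groups this was 0 among 26312973 reads in NA MPs, which allows up to 0.114 CPM at 3 reads, and 9.78 among 34124964 reads (0.287 CPM) in WT MPs. Set against 3 reads in NA MPs, the summed WT MP level was higher by a factor of 2.51, or of 1.57 without WT MP 1, which held 4.78 of the 9.78 reads. The counting error of the few WT MP reads is not in these factors, and no difference is drawn from them. WT MP 5 also had 0 reads, so the groups met at 0, and the exact permutation test gave p = 0.0794, which is not past the threshold. When genes with few reads were kept in, edgeR called Dusp8, and that call rests on these same few reads.

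Levels of different members were compared per kilobase (kb) of the principal transcript in GENCODE M21. In WT MPs the order was Dusp2 (21.9 ± 3.94 CPM per kb, SD, n = 5), Dusp1 (18.9 ± 7.49), Dusp6 (13.6 ± 0.679), Dusp7 (9.88 ± 1.02), Dusp5 (1.73 ± 0.173), Dusp16 (1.15 ± 0.155), Dusp9 (0.641 ± 0.281), Dusp10 (0.596 ± 0.159), Dusp4 (0.203 ± 0.158) and Dusp8 (0.0633 ± 0.0637). Dusp2 and Dusp1 differed by less than their spread, as did Dusp1 and Dusp6, Dusp9 and Dusp10, and Dusp4 and Dusp8. In NA MPs the order began with Dusp1 (142 ± 52.3 CPM per kb, SD, n = 4), Dusp2 (46.4 ± 11), Dusp6 (26.3 ± 3.45), Dusp7 (10.6 ± 0.597) and Dusp5 (4.31 ± 2.0). Dusp16 (1.01 ± 0.244) and Dusp9 (0.943 ± 0.170) differed by less than their spread there, as did Dusp9 and Dusp10 (0.651 ± 0.314) and Dusp10 and Dusp4 (0.387 ± 0.188), and Dusp8 was at 0.

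The composition of the family shifted towards Dusp1. The 10 members summed to 436, 322, 582 and 606 CPM in NA MPs 1 to 4. In WT MPs 1 to 5 they summed to 127, 139, 163, 191 and 167 CPM. Dusp1 made up 48.9% to 64.2% of this sum in NA MPs and 16.1% to 30.0% in WT MPs, so that Dusp1 reads exceeded those of the other members together in 3 of 4 NA MP libraries and in 0 of 5 WT MP libraries. Without Dusp1 the sums did not overlap either, at 164 to 238 CPM against 107 to 134 CPM. These sums consist largely of Dusp2 and Dusp6, which did not overlap singly, so they add no separate result. The ratio of Dusp1 to Dusp6 reads was 3.46, 2.56, 4.23 and 4.79 in NA MPs and 0.565, 0.717, 0.927, 1.42 and 1.29 in WT MPs. The share of Dusp1 and this ratio follow from the larger fold change of Dusp1 given above and are no separate result either.

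The libraries also ranked alike for these genes. NA MP 2 had the lowest level of Dusp1, Dusp2, Dusp5 and Dusp6, followed by NA MP 1, while NA MP 3 and NA MP 4 were the highest for all 4. Within WT MPs, Dusp1 and Dusp2 gave the same order, with WT MP 4 highest and WT MP 1 lowest. Dusp6 was also highest in WT MP 4 and lowest in WT MP 1, and Dusp5 had its own order.

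Dusp1 is induced together with the immediate early genes, the first transcripts that cells make after a stimulus, so its change was set against a list of 23 such genes, 18 of which were tested. Of these 15 rose and 1 fell. The median of their log2 fold changes was 1.88, with summed levels of 2360 to 4610 CPM in NA MPs and 876 to 1330 CPM in WT MPs. The named examples were the transcription factor genes Fosb (log2 fold change 4.30, edgeR, Benjamini-Hochberg adjusted p = 0.000468), Klf2 (3.33, adjusted p = 0.000394), Nr4a1 (3.14, adjusted p = 0.00994) and Fos (2.90, adjusted p = 0.000259). Fos, a subunit of AP-1, had 694 ± 227 CPM (SD, n = 4) in NA MPs and 92.7 ± 30.5 CPM (SD, n = 5) in WT MPs.

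The mean log2 CPM of the 18 genes ordered the libraries of both groups as Dusp1 did, from NA MP 2 (6.03) to NA MP 4 (7.04) and from WT MP 1 (4.48) to WT MP 4 (5.21). Dusp1 nevertheless moved by more than the list mean. This holds for the mean only, since Fosb, Klf2 and Nr4a1 had larger log2 fold changes than Dusp1, and Fos a similar one. Dusp1 minus the list mean was 1.55, 1.27, 1.47 and 1.56 on the log2 scale in NA MPs 1 to 4. It was -0.11, 0.16, 0.33, 0.64 and 0.58 in WT MPs 1 to 5. Within WT MPs it thus ordered the libraries as the list mean did, from WT MP 1 to WT MP 4. The subtraction assumes that Dusp1 follows the list with a slope of 1. It therefore cannot tell an added rise of Dusp1 in NA MPs from a steeper relation of Dusp1 to the list. The difference between the group means, 1.46 ± 0.14 (SD, n = 4) and 0.32 ± 0.31 (SD, n = 5), was 1.14 with no overlap (exact two-sided permutation test, p = 0.0159), with a difference of 2.91 for Dusp1 and of 1.77 for the list mean. The increase of Dusp1 thus came with that of the list in the same libraries, and whether the one had a part in the other was not tested.

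Dusp6 was set in the same way against 9 tested genes of ERK output, the Sprouty and Spred inhibitors of Ras signalling and targets of ETS factors, from a list of 12. Of these 4 rose, 0 fell and the median log2 fold change was 0.21. Those that rose were Phlda1 (log2 fold change 2.01, edgeR, Benjamini-Hochberg adjusted p = 2.71e-06), an early target of growth factor signalling, the inhibitors Spry1 (0.71, adjusted p = 0.00818) and Spred3 (0.48, adjusted p = 0.00511), and Ccnd1, which encodes cyclin D1 (0.34, adjusted p = 8.21e-05). Phlda1 was low, with 2.84 ± 0.745 CPM (SD, n = 4) in NA MPs and 0.687 ± 0.395 CPM (SD, n = 5) in WT MPs. The WT MP level was close to the limit of detection, so the size of its fold change rests on few WT MP reads. Spry1 was no longer called without NA MP 3 (0.45, edgeR, Benjamini-Hochberg adjusted p = 0.106).

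Dusp6 minus the mean log2 CPM of the 9 genes was 2.52, 2.52, 2.55 and 2.58 in NA MPs 1 to 4. It was 2.15, 1.92, 1.94, 1.91 and 1.72 in WT MPs 1 to 5. The NA MP libraries were nearly equal on this measure and lay above all WT MP libraries. The difference of means, 2.54 ± 0.03 (SD, n = 4) and 1.93 ± 0.15 (SD, n = 5), was 0.62 (exact two-sided permutation test, p = 0.0159), with a difference of 0.94 for Dusp6 and of 0.32 for the list mean. Here too this holds for the mean only, since Phlda1 had a larger log2 fold change than Dusp6. Within WT MPs the measure was highest in WT MP 1, where the list mean was lowest, and lowest in WT MP 5, where the list mean was highest.

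**Figure D3:**
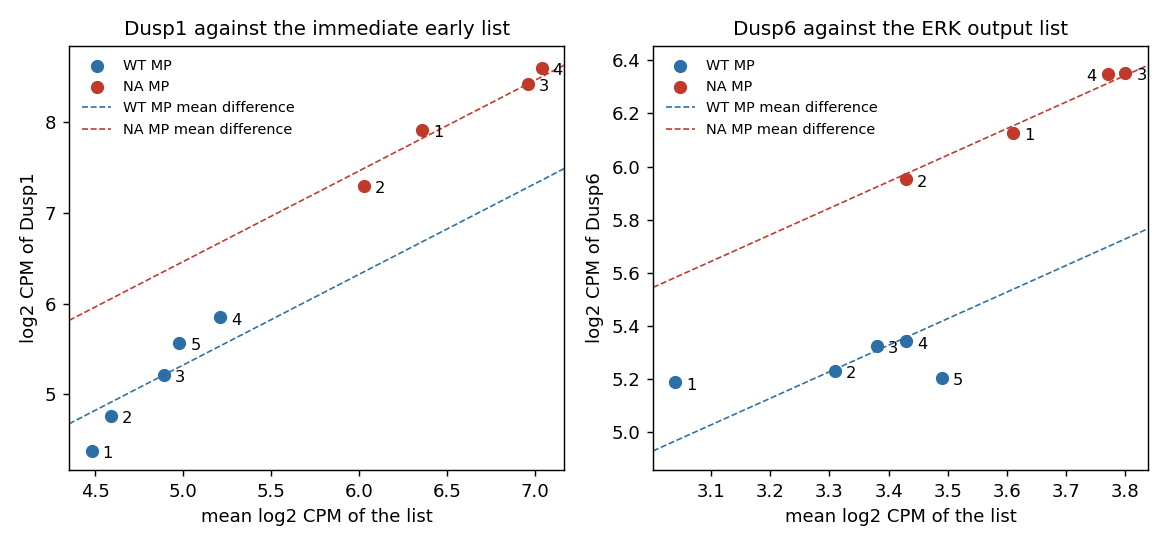
Log2 CPM of Dusp1 against the mean log2 CPM of 18 immediate early genes (left) and of Dusp6 against that of 9 ERK output genes (right), with 1 numbered point per library, WT MPs in blue and NA MPs in red, and dashed lines of slope 1 at the mean difference of each group. In both panels the NA MP line lies above the WT MP line, by 1.14 on the left and 0.62 on the right. The WT MP points rise more steeply than their line on the left and less steeply on the right.

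The kinases that these phosphatases act on differed by small amounts at the transcript level. Of 14 tested MAP kinase and MAP2 kinase genes 1 rose and 2 fell, and the median change on the log2 scale was -0.03. Among the substrates, Mapk9, which encodes JNK2, had a log2 fold change of -0.25 (edgeR, Benjamini-Hochberg adjusted p = 1.41e-05). Mapk3 (ERK1, -0.03, adjusted p = 0.692), Mapk8 (JNK1, 0.01, adjusted p = 0.906) and Mapk14 (p38 alpha, -0.04, adjusted p = 0.370) were not called by edgeR with Benjamini-Hochberg adjustment. The MAP2 kinase gene Map2k7, whose product activates JNK, had a log2 fold change of 0.19 (edgeR, Benjamini-Hochberg adjusted p = 0.000605).

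Of 12 Raf and MAP3 kinase genes 1 rose (Map3k11, 0.15) and 2 fell (Map3k7, which encodes TAK1, -0.23, and Map3k20, -0.19), and the median change on the log2 scale was -0.03. Other phosphatases known to act on MAP kinases showed 1 rise among 7 tested genes, that of the blood cell phosphatase Ptpn7 (0.10), and a median of 0.01. Among 8 tested atypical dual specificity phosphatases and other Dusp genes, most of which lack the docking domain of the members, 1 rose, Dusp23 (0.34, edgeR, Benjamini-Hochberg adjusted p = 0.0264), and the median was -0.01. The call for Map3k11 was lost with the replicate block and without either NA MP 2 or WT MP 5 (edgeR, Benjamini-Hochberg adjusted p = 0.0515 to 0.0947). The call for Dusp23 was lost with DESeq2 (adjusted p = 0.0893) and without any 1 of NA MP 1, NA MP 3, WT MP 2 or WT MP 4. Of 4 tested Gadd45 and scaffold genes 1 rose, Gadd45a (0.43), which is induced by stress and can activate p38.

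Heat shock genes, which are induced by protein damage, were read beside the stress kinase members. Of 10 tested genes 2 rose and 6 fell, around a median change of -0.12 on the log2 scale. Hspa1b, one of a pair of near-identical Hsp70 genes whose reads can be split with Hspa1a, rose by 2.30 on the log2 scale, from 0.567 to 2.78 CPM (edgeR, Benjamini-Hochberg adjusted p = 3.80e-07). The WT MP level of Hspa1b was close to the limit of detection, so few WT MP reads set the size of this change. Hsph1 (-0.58), Hspe1 (-0.26) and Hspd1 (-0.26) fell. The heat shock list thus moved in mixed directions, and whether the cells were under stress was not tested.

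**Figure D4:**
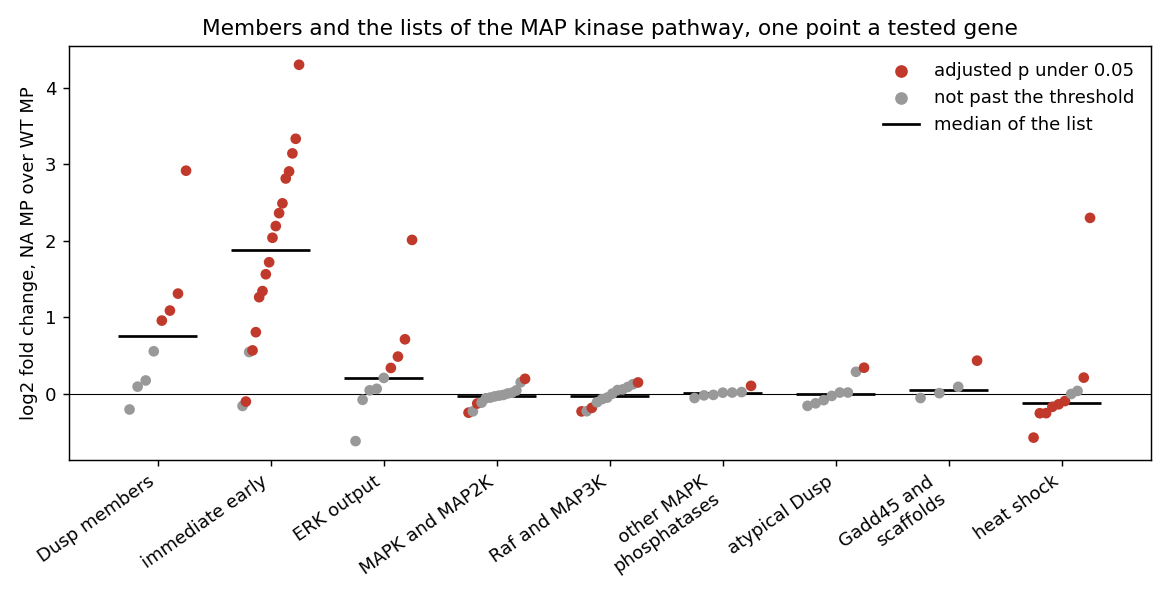
Log2 fold change of NA over WT MPs (vertical axis) with 1 point per tested gene for the phosphatases and each pathway list, in red where the edgeR adjusted p was under 0.05 and in grey otherwise, with a bar at the list median. The phosphatases (median 0.75) and the immediate early genes (1.88) reach high values, the kinase lists and the other phosphatases cluster within a narrow band around 0, and the heat shock genes lie mostly below 0 with Hspa1b far above.

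The profiles over the 9 libraries that were closest to each raised member were found among all tested genes, by the root mean square (RMS) difference of log2 CPM after centring each gene on its mean. For Dusp1 they were Fos (0.113), Pmaip1, which encodes the cell death protein Noxa (0.214), and the chemokine gene Ccl4 (0.220), while the median RMS difference from Dusp1 over all tested genes was 1.54. For Dusp2 they were Ppp1r15a, which encodes the stress phosphatase subunit GADD34 (0.0885), the histone gene Hist3h2a (0.145) and the neutrophil granule gene Ngp (0.155), beside a median of 0.609. For Dusp5 they were Ajuba, a scaffold protein gene (0.239), Rgs2 (0.257) and Ddit4, an inhibitor of mTOR signalling (0.267), beside a median of 0.695. For Dusp6 they were the small GTPase gene Rhob (0.0753), Rgs2, a regulator of G protein signalling (0.0930), and Hist3h2a (0.0968), beside a median of 0.497. Fos rose by 2.90, Pmaip1 by 3.11, Ppp1r15a by 1.24, Rhob by 1.07 and Rgs2 by 1.01 on the log2 scale. The centring keeps the difference between the groups, so the medians follow the size of each member's own fold change. The 3 closest genes lie below these medians by the way they were picked. Most of these genes are not of the MAP kinase lists, and closeness of profile says nothing of shared control.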

How the data were processed

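Poly(A) RNA of 4 NA MP and 5 WT MP samples was sequenced, and groups were taken from the genotype in the sample labels. Per the labels and methods, the authors used bcl2fastq, RSEM and DESeq2 with mm10. RSEM settings, annotation and strand setting are not given in the sources used here. The deposited table holds an expected count per gene, multiplied by 1 constant per sample: low values were whole multiples of 0.827 to 1.20, and division by this value of 1 read gave whole numbers (tolerance 0.02) for 97.3% to 97.6% of values above 0. The deposited totals (6602851 to 6734284) are therefore nearly equal, and the recovered totals give the depth. The limit of 3 reads covers counting error only, and the intervals of fold changes rest on the spread between replicates.

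Recovered expected counts were rounded. In R 4.3.3, edgeR 4.0.16 was run with TMM, filterByExpr (minimum count 10) and its quasi-likelihood test with the robust option, and p-values were adjusted over all 11953 tested genes by Benjamini-Hochberg (threshold 0.05). CPM used TMM library sizes, log2 CPM a prior count of 2. Single values were compared by exact permutation tests (SciPy 1.17.1). Symbols matched 32916 of 37980 Ensembl identifiers. Gene models were those of GENCODE M21 (GRCm38) and upstream sequence that of RefSeq. The fit was tested on simulated data with 200 changed genes. The simulated replicates varied less than those of Dusp1, so this says nothing of the error of the fit for such genes. DESeq2 1.42.0 and limma 3.58.1 were alternatives, as were other normalizations, filters and prior counts, unrounded values, the replicate block and leaving out each sample. The values as deposited, limma and Dusp8 without WT MP 1 were added after seeing the data.

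The members and lists were chosen with earlier results of these data known. Genes named are all members, up to 4 called genes with the largest change of each pathway list, the substrates Mapk3, Mapk8, Mapk9 and Mapk14, and the 3 closest profiles per raised member. A further gene under this rule is not reported here. Replicates within a group differed by more than sampling noise (chi-square per degree of freedom 1.20 to 2.83).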

Additional observations from a re-analysis of the deposited data

Results flagged for a closer look

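Among the 20 sets of replicate values examined (10 members in 2 groups), 2 had a library far from the rest, by its gap to the nearest value as a share of the whole range. For Dusp9 this was NA MP 1, at 0.90 of the range (3.26 CPM, others 2.29 to 2.37). For Dusp16 it was WT MP 5, at 0.808 of the range (4.48 CPM, others 6.00 to 6.43). Chance gives such a library in about 1 of 20 groups, and both genes had 50 reads or fewer per library.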

How the results depend on the processing

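The number of genes called was 4078, and 2886 (adjusted p under 0.01) to 4305 (no filter) under the other settings, with 3084 by DESeq2, 4093 on the values as deposited and 4105 by limma. Leaving out 1 library gave 3638 to 3959. Dusp1, Dusp2, Dusp5 and Dusp6 were called under all 20 alternatives, with log2 fold changes of 2.71 to 3.12, 0.97 to 1.23, 0.99 to 1.49 and 0.90 to 1.03 when 1 library was left out. The number of members called was 4 throughout, apart from 5 without a filter (Dusp8 added) and 5 without WT MP 1 (Dusp9 added). The sign turned for Dusp10 without NA MP 2 (-0.1152, highest 0.3615 without NA MP 1), for Mapk3 without NA MP 1 (0.007764, lowest -0.05593 without NA MP 2) and for Mapk8 with library totals only (-0.00874), without NA MP 1 (-0.04465) and without NA MP 3 (-0.000988), while its highest value was 0.0482 without NA MP 2, and none of these was called in either case; the cause was not tested. Map3k11 lost its call at an adjusted p under 0.01, with the replicate block, without NA MP 2 and without WT MP 5.

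Replicate numbers 1 to 4 occur in both groups but the samples came from different mice, and the deviations of same-numbered samples from their group means were not correlated (-0.02 to 0.05), so the numbers do not pair the samples. With the replicate number as a block, 3741 genes and the same 4 members were called. Depth limits Dusp4 and Dusp8, which had at most 9 reads in any library.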

Other observations

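Marker lists of cell types not described above also differed between the groups in part, where 34.1% of all tested genes were called. Of 5 tested genes of the stem cell gate 4 rose (median change 0.57 on the log2 scale), with summed levels of 128 to 151 CPM in NA MPs and 74.9 to 86.3 CPM in WT MPs. Of 8 tested mature neutrophil markers 3 rose and 1 fell (516 to 802 CPM against 434 to 512 CPM), and of 8 tested monocyte and macrophage markers 5 rose and 2 fell (1360 to 1560 CPM against 1200 to 1320 CPM). Of 5 tested eosinophil markers 1 rose and 3 fell (136 to 230 CPM against 232 to 290 CPM). Of 7 tested megakaryocyte markers 1 rose and 3 fell, and of 6 tested dendritic cell markers 2 rose and 1 fell, with summed levels that overlapped between the groups. Both tested T and NK cell markers rose, with summed levels of 296 to 317 CPM against 252 to 274 CPM, while Cd3e and Cd3g had 0 reads. The part of these shifts in the levels of the phosphatases was not tested.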
